A study of Mus musculus with 45 samples.

Results

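The 37 genes described here encode lysosomal proteases, other lysosomal hydrolases and lipid-handling proteins, proteins of the lysosomal membrane with their regulators, and subunits of the proton pump that acidifies the lysosome. They come from a list of named genes that was drawn up with earlier results of these data known. All 37 of the 37 listed genes had a probe set assigned to a single gene symbol, out of 19752 genes with such a probe set on the array, and each gene was represented by its probe set with the highest mean over the 45 arrays. They were grouped as 14 proteases (with the thiol reductase Ifi30), 11 hydrolases and lipid-handling proteins (with Psap, Npc2 and Grn), 7 membrane and regulatory proteins (with Tfeb) and 5 pump subunits. Counts of proteases, hydrolases and membrane genes or proteins among the 37 refer to these groups.

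The study profiled muscle macrophages of male C57Bl6 mice on 45 Affymetrix Mouse Gene 1.0 ST arrays, before and after muscle injury by the snake toxin cardiotoxin. Macrophages were sorted as CD11b+ Ly6g- cells positive for the macrophage antigen encoded by Adgre1, and the sample titles divide them by surface MHC class II into MHCII+ and MHCII- cells. Mice were Foxp3.DTR+ or Foxp3.DTR-, named DTR+ and DTR- from here. In Foxp3.DTR+ mice the Foxp3 gene drives the diphtheria toxin receptor, so that diphtheria toxin (DT) removes regulatory T cells; sample titles give 24 h or 8 h of DT for some sets, without saying from which event the hours are counted.

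Uninjured DTR- mice of 10 weeks gave 2 MHCII+ and 2 MHCII- arrays (day 0). On day 1 after injury, in the set titled 24 h DT, mice of 8 weeks gave 2 arrays for each combination of genotype and subset. On day 4, DTR- mice of 8 weeks gave 2 arrays per subset. On day 7 the set titled 24 h DT, from mice of 8 weeks, held 4 MHCII+ and 3 MHCII- arrays of DTR- mice and 2 MHCII+ and 3 MHCII- arrays of DTR+ mice. The day 7 set titled 8 h DT, from mice of 12 weeks, held 3 MHCII+ and 4 MHCII- arrays of DTR- mice and 3 arrays of each subset of DTR+ mice. Another set of day 7, whose titles give no hours of DT, came from mice of 10 weeks and held MHCII+ cells only, 2 arrays per genotype. The gate also excluded SiglecF+ cells in the 8 h set and on days 1 and 4, and required CD45+ DAPI- cells on days 1 and 4. Day 0 therefore differs from days 1 and 4 in age and gate as well as in injury, and these cannot be told apart. Titles name DT on day 1 but not on days 0 and 4. Differences between day 1 and those days therefore cannot be told apart from DT either. The subsets of a given day share age and the listed gate. Nothing in the labels states that arrays of a group came from separate animals, so p-values measure the spread between these samples, which may be technical.

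Lysosomes are the acidic compartments in which macrophages break down engulfed cells and debris, a main task of macrophages in injured muscle. Cathepsins and other hydrolases are delivered there and work at low pH, which the V-ATPase maintains by pumping protons. Many lysosomal genes carry an E-box-like element in their promoters that is bound by TFEB and its relatives, which raise lysosomal gene expression.

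That element has the core CACGTG, which reads the same on both strands. RefSeq promoter windows (GRCm38.p6, 250 bases before to 50 after each start, 300 in all) matched 32 of the 37 genes, with 37 windows. No entry matched for Asah1, Ctsb, Ctsh, Atp6v0d2 and Atp6v1h. The core lay in 12 of the 37 windows, from 12 genes (32.4%), against 7.15% of all 32851 windows. The longer form TCACGTG, which contains the core and was searched on both strands, lay in 10 windows (27%), against 3.77% of all windows. The 12 genes were Ctsa, Ctsd, Ctsf, Ctsl, Lgmn, Ifi30, Gla, Glb1, Lamp1, Mcoln1, Atp6v0d1 and Atp6v1a, and the other 20 matched genes had no core in the window. A match describes the letters only. For Ctsl and Atp6v1a the window, and with it the printed stretch of Ctsl, lies inside the annotated span of the gene. For Ctsa and Lgmn the core lay only in such an inner window, and not in the window at the outer start. Ctsl and Ctsf held the core without the longer form. Printed here, on the strand of the gene and with the core in capitals, are the stretches for 5 genes whose values are followed below. They are Lamp1 (chr8:13159060-13159160, plus strand, 4 copies), Mcoln1 (chr8:3500408-3500518, plus, 2 copies), Gla (chrX:134601154-134601255, minus, 2 copies), Glb1 (chr9:114400990-114401075, plus, 1 copy) and Ctsl (chr13:64370711-64370770, minus, 1 copy).
Lamp1: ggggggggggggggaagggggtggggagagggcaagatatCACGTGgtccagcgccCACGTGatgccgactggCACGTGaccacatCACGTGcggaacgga
Mcoln1: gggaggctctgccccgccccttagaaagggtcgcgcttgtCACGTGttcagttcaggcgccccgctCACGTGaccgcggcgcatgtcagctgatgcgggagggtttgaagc
Gla: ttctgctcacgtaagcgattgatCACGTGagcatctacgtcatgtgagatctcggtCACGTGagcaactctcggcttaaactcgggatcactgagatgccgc
Glb1: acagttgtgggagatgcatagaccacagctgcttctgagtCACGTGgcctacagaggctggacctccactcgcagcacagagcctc
Ctsl: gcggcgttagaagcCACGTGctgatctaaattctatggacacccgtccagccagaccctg
Among these 5, the stretch of Lamp1 is the densest, with all 4 of its cores within 101 bases.

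Several arrays stood apart from the rest of their groups. H2-Ab1, a class II gene, read 13.67 to 14.01 on the log2 scale in the 24 arrays titled MHCII+ and 7.81 to 12.45 in the 21 titled MHCII-, so the titles were used for the subsets although the marker field of the labels reads MHCII- for all but the day 0 MHCII+ samples. Array medians were 174.7 to 203.7 and replicates of a group correlated at 0.976 to 0.998, and the number of arrays, 2 to 4 per group, limits the precision. The mean of a 7-gene neutrophil list was 10.80 on day 0 MHCII- replicate 1 and 7.42 on replicate 2, against a median of 6.89 over all arrays. The day 0 MHCII+ arrays read 7.29 and 6.26 for the 2 B cell genes found of 3, and 9.13 and 8.93 for 6 dendritic cell genes. The day 0 MHCII- arrays read 5.42 and 5.52, and 7.64 and 7.76, for the same lists. Macrophage markers (5 of 5 found) averaged 11.60 to 12.42 over all arrays, and both ends of that range lie on day 0, with 11.82 and 11.60 in MHCII+ cells and 12.42 and 12.32 in MHCII- cells. In the day 7 24 h set, DTR+ MHCII- replicate 3 was the lowest of its group for 32 of the 37 genes, and in the 8 h set DTR+ MHCII+ replicate 1 was the lowest for 32. That 8 h array also read 9.12 for the T cell list, with 7.30 and 7.27 on the others of its group. The part of these markers in the results was not tested, and in bulk samples fewer cells of a type and less RNA per cell cannot be told apart.

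The 37 genes were expressed in nearly every group. All 37 passed the filter on low values, and only Ctsf (15 of 18 groups) and Ctsk (17) fell under it in any group. 13 genes had a mean of 13 or more on the log2 scale, where the highest value of any gene was 14.31. The range of the 18 group means had a median of 0.42 in these 13 genes and of 1.00 in the other 24. The proton pump subunit Atp6v0d2, a form of the d subunit found in osteoclasts and some macrophages, ranged most (4.19), followed by cathepsin K (Ctsk, 3.52), the tetraspanin Cd63 (2.28), cathepsin L (Ctsl, 1.87) and cathepsin F (Ctsf, 1.69). The smallest ranges belonged to the saposin precursor Psap (0.33), the membrane protein Lamp2 (0.35), the macrophage sialomucin Cd68 (0.36) and Atp6v0d1 (0.38), the widely expressed partner of Atp6v0d2. The lowest group mean fell in the day 0 MHCII+ cells for 18 genes and on day 1 for 15, and the highest fell on day 7 for 28. Most of the 18 groups are day 7 groups, which by itself places many highest means there. The shares over all genes were not taken, so these counts are not particular to the 37.

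**Figure D1:**
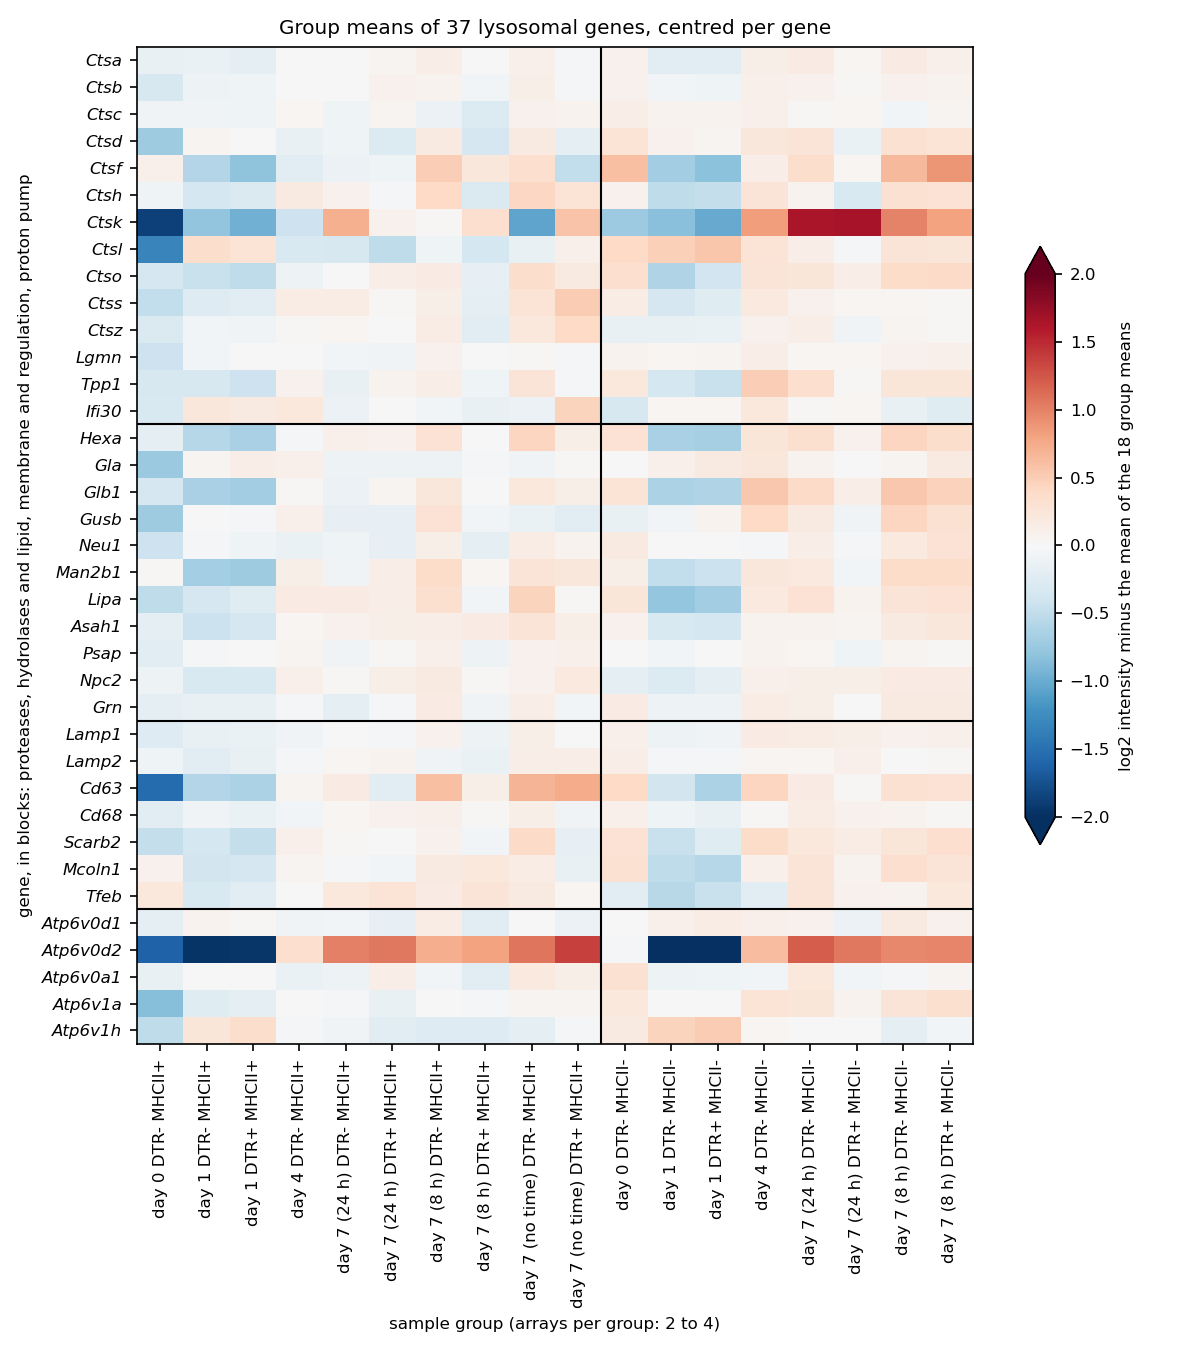
Group means of the 37 genes (vertical axis, in blocks by role) in the 18 groups (horizontal axis, MHCII+ left and MHCII- right of the vertical line), as log2 intensity minus the mean of the gene's 18 group means. Atp6v0d2 and Ctsk, with ranges of 4.19 and 3.52, carry the strongest colours, and Psap (0.33) the weakest.

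In uninjured muscle, MHCII+ macrophages carried lower levels of most of the 37 genes than MHCII- macrophages. The limma fit called 25 genes lower and 1 higher at an adjusted p under 0.05, beside 19% of all 11074 genes tested in either direction (10.6% lower, 8.44% higher). The median difference, MHCII+ minus MHCII-, was -0.48 over the 37 genes and -0.02 over all genes. By role, 8 of 14 proteases (median -0.50), 9 of 11 hydrolases (-0.48), 5 of 7 membrane proteins (-0.31) and 3 of 5 pump subunits (-0.69) were lower. Values do not overlap between the groups for 36 of the 37, with 2 arrays on each side, and for 64.6% of all genes. Lack of overlap was also part of the choice of genes given in full. It describes the values and adds no support here or in the comparisons below. The macrophage marker list was lower in MHCII+ cells as well (11.82 and 11.60 against 12.42 and 12.32), and the B cell and dendritic cell lists were higher, as given above; their part in these differences was not tested.

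Among proteases the lead was Ctsl, a broad cysteine protease of the lysosome. It read 13.05 and 13.24 in MHCII- cells and 11.62 and 11.24 in MHCII+ cells, 3.28-fold lower (log2 -1.71 ± 0.14 SE, adjusted p = 6.68e-11). Both MHCII+ arrays lay well below both MHCII- arrays. Cathepsin D (Ctsd), an aspartic protease, read 13.71 and 13.78 against 12.81 and 12.74, 1.96-fold lower (adjusted p = 0.00102). Legumain (Lgmn), which cuts after asparagine and processes other cathepsins, read 13.65 and 13.55 against 13.13 and 13.08 (log2 -0.49 ± 0.06, adjusted p = 3.42e-08). Cathepsin B (Ctsb), another cysteine protease, was lower by a smaller step (-0.40 ± 0.06, adjusted p = 6.38e-06). Cathepsin S (Ctss), which trims the class II invariant chain, read 13.18 and 13.12 against 12.64 and 12.35 (-0.66 ± 0.14, adjusted p = 0.00101), but without MHCII+ replicate 2 the difference was -0.51 with an adjusted p of 0.062. Ctsk, a collagen-degrading cathepsin, read 8.51 and 8.59 against 7.71 and 7.09 and did not pass (-1.15 ± 0.43, adjusted p = 0.057). Its MHCII+ mean of 7.40 lay under the filter on low values of 7.57. The size of this and later Ctsk differences from the day 0 MHCII+ group is therefore uncertain. Ifi30, a thiol reductase of antigen processing, differed by 0.01 (adjusted p = 0.976), and cathepsins C, F, H and Z (Ctsc, Ctsf, Ctsh, Ctsz) did not pass either.

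Of the hydrolases, the lipase Lipa, which frees cholesterol from its esters, read 12.86 and 13.09 in MHCII- cells and 12.28 and 12.19 in MHCII+ cells (-0.74 ± 0.17, adjusted p = 0.00148). The alpha-galactosidase Gla read 11.83 and 11.88 against 11.07 and 11.18 (-0.73 ± 0.11, adjusted p = 9.34e-06). Progranulin (Grn), a lysosomal glycoprotein, read 13.58 and 13.56 against 13.21 and 13.20 (-0.37 ± 0.09, adjusted p = 0.00509). In each of these 3 genes both MHCII+ arrays lay below both MHCII- arrays, which adds no support, as 64.6% of all genes did not overlap. The alpha-mannosidase Man2b1 (-0.09) and the cholesterol carrier Npc2 (0.09) were the 2 hydrolase and lipid genes that did not pass.

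The membrane protein Cd63, carried on late endosomes and lysosomes, showed the largest difference of the 37. It read 11.72 and 11.96 in MHCII- cells and 10.15 and 9.65 in MHCII+ cells, 3.82-fold lower (-1.93 ± 0.30, adjusted p = 1.18e-05). Lamp1, a major glycoprotein of the lysosomal membrane, read 13.14 and 13.18 against 12.80 and 12.81 (-0.35 ± 0.07, adjusted p = 0.000193), and Cd68 read 13.51 and 13.43 against 13.14 and 13.17 (-0.31 ± 0.07, adjusted p = 0.00108). These 3 kept their calls when any 1 array was left out. The difference in Lamp2, which takes part in autophagy, was smaller (-0.21 ± 0.07, adjusted p = 0.0199) and lost its call without MHCII+ replicate 2 or either MHCII- array, with adjusted p-values of 0.173, 0.0867 and 0.102. The enzyme receptor Scarb2 read 11.21 and 11.11 against 10.65 and 10.12 (-0.77 ± 0.16, adjusted p = 0.000531), and -0.50 with an adjusted p of 0.0784 without MHCII+ replicate 2. Tfeb, the transcription factor, was the only one of the 37 called higher in MHCII+ cells, at 9.61 and 9.58 against 9.26 and 9.04 (0.45 ± 0.11, adjusted p = 0.00498). Without MHCII- replicate 2 its difference was 0.33, with an adjusted p of 0.125. The calcium channel Mcoln1 did not pass (-0.21, adjusted p = 0.18).

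In the proton pump, Atp6v0d2 read 11.34 and 12.07 in MHCII- cells and 10.06 and 10.16 in MHCII+ cells, 3.01-fold lower (-1.59 ± 0.15, adjusted p = 6.22e-10). Its widely expressed counterpart Atp6v0d1 read 11.47 and 11.59 against 11.41 and 11.30 and did not pass (-0.17 ± 0.14, adjusted p = 0.412). The catalytic subunit Atp6v1a read 11.82 and 12.16 against 10.84 and 11.02, 2.08-fold lower (adjusted p = 2.1e-07). The regulatory subunit Atp6v1h read 10.05 and 10.25 against 9.44 and 9.49 (-0.69 ± 0.14, adjusted p = 0.000594). The membrane subunit Atp6v0a1 did not pass (-0.45, adjusted p = 0.113).

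The calls of 13 of the 26 genes held whichever 1 of the 4 arrays was left out, and those of the other 13 did not. The count was 22 without MHCII+ replicate 1, 17 without MHCII+ replicate 2, 18 without MHCII- replicate 1 (the array with the high neutrophil markers) and 16 without MHCII- replicate 2. Besides Ctss, Lamp2, Scarb2 and Tfeb, the calls that ended were those of the peptidases Ctsa, Ctso and Tpp1, the glycosidases Hexa, Glb1, Gusb and Neu1, the ceramidase Asah1 and Psap, with adjusted p-values of 0.0532 to 0.454 in the fits that ended them. Outside the 37, 81 other lysosomal genes had a probe set, and their lists also leaned lower in MHCII+ cells. Of the tested genes, 9 of 24 hydrolases, 7 of 16 membrane proteins, 5 of 12 pump subunits, 4 of 8 sorting genes and 5 of 16 regulators were lower, and 3 hydrolases were higher. Tfec, a relative of Tfeb, read 10.79 and 10.75 in MHCII- cells and 9.34 and 8.80 in MHCII+ cells (-1.70 ± 0.17, adjusted p = 2.83e-09), opposite in sign to Tfeb. Galc, the galactosylceramidase, was also lower (-1.36 ± 0.15, adjusted p = 3.89e-08), and the GM2 activator Gm2a was higher (0.79 ± 0.08, adjusted p = 6.99e-09).

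After injury the 2 subsets differed in few of the 37 genes. The fit shares 1 spread per gene over all sets, which makes the day 1 tests strict. The typical residual standard deviation was 0.0842 on day 1 and 0.2036 in the day 7 24 h set. On day 1 a single gene, Atp6v0d2, passed in each genotype, and it was higher in MHCII+ cells, opposite to day 0. In DTR- mice it read 8.87 and 8.97 in MHCII- cells and 9.65 and 9.86 in MHCII+ cells (0.84 ± 0.15, adjusted p = 0.000323), and 2.45% of all genes passed. In DTR+ mice it read 9.01 and 8.79 against 9.84 and 9.73 (0.88 ± 0.15, adjusted p = 0.000161), with 2.26% of all genes passing. In both genotypes the groups did not overlap, and the calls held when any 1 array was left out. Ctsl differed by -0.12 and -0.28 in the respective genotypes, Ctsk by 0.04 and 0.05, Ctss by 0.07 and 0.03, Lamp1 by -0.04 and -0.06, Lamp2 by -0.18 and -0.13, Tfeb by 0.25 and 0.23 and Atp6v0d1 by -0.04 and -0.12, none of which passed. Outside the 37, Tfec stayed lower in MHCII+ cells (-0.99 ± 0.17 in DTR- mice, adjusted p = 0.000233).

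On day 4, 2 of the 37 passed, both lower in MHCII+ cells, beside 2.12% of all genes. Ctsl read 12.94 and 13.09 in MHCII- cells and 12.33 and 12.56 in MHCII+ cells (-0.57 ± 0.14, adjusted p = 0.0246), and Lamp1 read 13.22 and 13.22 against 12.91 and 13.05 (-0.24 ± 0.07, adjusted p = 0.0483). Neither call held without MHCII+ replicate 2, MHCII- replicate 1 or MHCII- replicate 2, with adjusted p-values of 0.435, 0.0766 and 0.396 for Ctsl and of 0.696, 0.263 and 0.344 for Lamp1. Atp6v0d2 read 12.31 and 12.37 against 12.15 and 11.97 and did not pass (-0.28 ± 0.15, adjusted p = 0.617). Ctsk read 10.22 and 10.00 against 8.47 and 9.26 (-1.24 ± 0.43, adjusted p = 0.168), a wide gap with wide spread.

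In the day 7 24 h set, DTR- mice had 5 genes lower in MHCII+ cells, beside 5.23% of all genes (3.19% lower, 2.04% higher), with a median of -0.15 over the 37 and -0.07 over all genes. Ctsl read 12.85, 12.87 and 12.93 in MHCII- cells and 12.39, 12.55, 12.25 and 12.52 in MHCII+ cells (-0.46 ± 0.11, adjusted p = 0.0112), with no overlap. The others were the beta-galactosidase Glb1 (-0.49), the peptidase Tpp1 (-0.49), Grn (-0.29) and Mcoln1 (-0.27). None of the 5 calls survived every omission of 1 array: without MHCII+ replicate 3 the count was 0, and without MHCII+ replicate 1, MHCII- replicate 1 or MHCII- replicate 2 it was 1. MHCII+ replicate 3 was the lowest of its group for 22 of the 37 and had the group's lowest macrophage markers (11.81, others 11.93 to 12.23) and highest eosinophil (7.10, others 6.37 to 6.60), neutrophil (7.32, others 6.81 to 6.87) and B cell markers (6.00, others 5.38 to 5.54), whose part was not tested. The count was 3 without MHCII- replicate 3 and 8 without MHCII+ replicate 4, and without MHCII+ replicate 3 Ctsl differed by -0.40 (adjusted p = 0.0647). In DTR+ mice only Ctsk passed, beside 1.37% of all genes. It read 10.62, 11.07 and 11.08 in MHCII- cells and 9.40 and 9.30 in MHCII+ cells, 2.97-fold lower (-1.57 ± 0.39, adjusted p = 0.0266). Although the groups are well apart, its call ended without MHCII+ replicate 1 or 5 or MHCII- replicate 2 or 3, with adjusted p-values of 0.175, 0.194, 0.1 and 0.0588. Leaving out the low array, DTR+ MHCII- replicate 3, gave a Ctsl difference of -0.70 with an adjusted p of 0.000243, against -0.49 and 0.0505 with it.

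In the day 7 8 h set, none of the 37 passed in DTR- mice (limma), beside 2.21% of all genes (0.858% lower, 1.35% higher). At an unadjusted p under 0.05 the count was 4 of the 37, beside 9.46% of all genes. Ctsl read 12.95 to 13.11 in 4 MHCII- arrays and 12.57, 12.66 and 12.76 in MHCII+ arrays, without overlap (-0.34 ± 0.11, adjusted p = 0.117). Ctsk was 0.96 lower in MHCII+ cells without passing, and without MHCII- replicate 2, whose value of 9.13 lay below the 10.40 to 10.79 of its group, the difference was -1.34 with an adjusted p of 0.00937. In DTR+ mice 9 genes were lower in MHCII+ cells, beside 7.98% of all genes (4.99% lower, 2.99% higher), with a median of -0.24 over the 37. Ctsl read 13.18, 12.94 and 12.86 against 12.26, 12.48 and 12.46 (-0.59 ± 0.12, adjusted p = 0.00137), and its call held without any 1 array but not when only the compared arrays were fitted (adjusted p = 0.0566), where the count of the 37 was 0. The other 8 were Ctsc, Ctsd, Ctsf, Glb1, Neu1, Grn, Lamp1 and Atp6v1a, and their calls all ended without MHCII+ replicate 1, the array with the high T cell markers. The count was 1 without that array, 2 without MHCII- replicate 3, 5 without MHCII+ replicate 4 or MHCII- replicate 6, 7 without MHCII- replicate 5 and 20 without MHCII+ replicate 3. In Ctsd MHCII+ replicate 1 read 12.61, with 13.53 and 13.29 on the others of its group.

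**Figure D2:**
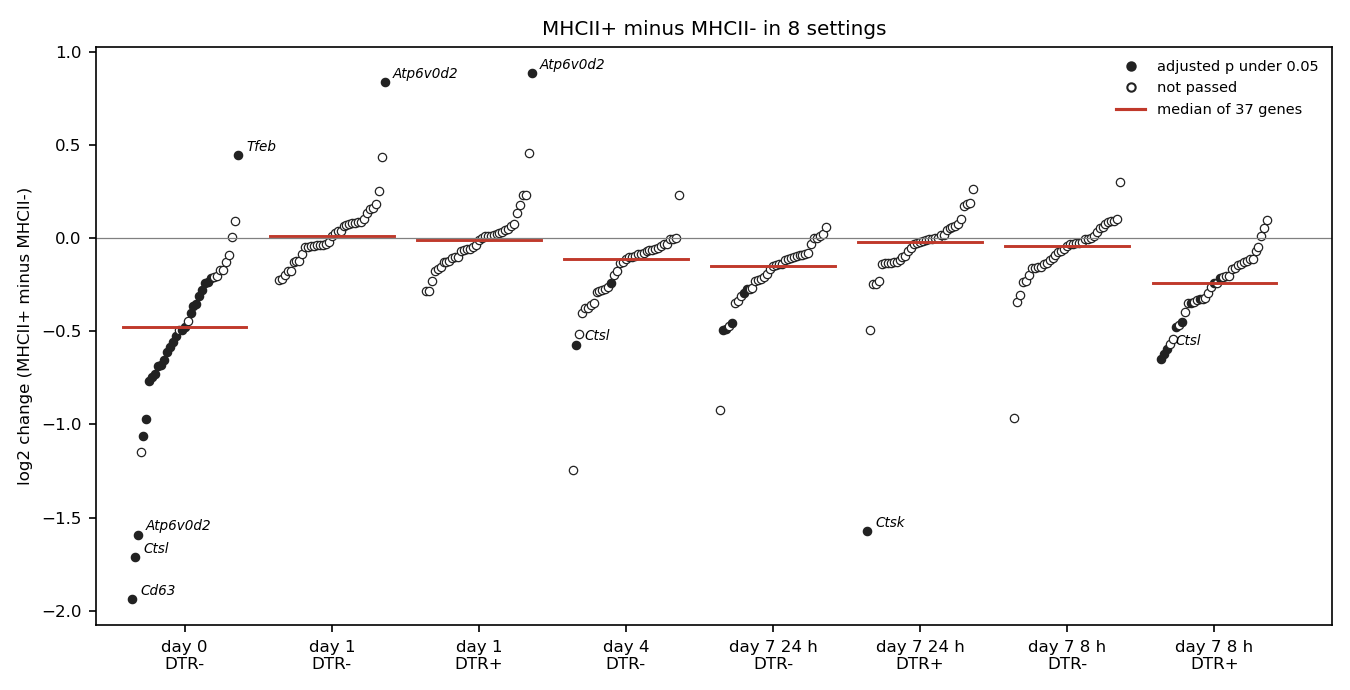
Difference between subsets (vertical axis, log2 change, MHCII+ minus MHCII-) for the 37 genes, 1 point per gene ordered by value, in 8 settings of day and genotype (horizontal axis); filled points passed at an adjusted p under 0.05 and red lines are medians. The median is -0.48 on day 0 and lies between -0.24 and 0.01 in the other settings.

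Whether the subset difference itself changed between days was tested as an interaction in DTR- mice. From day 0 to day 1 the difference, MHCII+ minus MHCII-, moved upward in 12 of the 37 and downward in none, beside 4.66% of all genes in either direction. The median shift was 0.49 over the 37 and 0.07 over all genes. The same 2 day 0 MHCII+ arrays also enter the subset result of day 0 and each comparison of MHCII+ cells with day 0 below. These results are therefore not independent of each other. The 2 arrays read 11.82 and 11.60 for macrophage markers and 7.29 and 6.26 for B cell markers, whose part was not tested. It was 2.43 ± 0.21 for Atp6v0d2 (adjusted p = 2.32e-09), whose sign turned, 1.59 ± 0.20 for Ctsl (3.29e-06), 1.18 ± 0.24 for Lipa (0.00171), 0.69 ± 0.16 for Gla (0.00614) and 0.41 ± 0.08 for Lgmn (0.00119). These 5 calls held when any 1 of the 8 arrays was left out. The calls of Ctsb, Ctss, Lamp1, Cd63, Cd68, Scarb2 and Atp6v1a did not, and the count was lowest, 6, without day 0 MHCII+ replicate 2 and 7 without day 0 MHCII- replicate 2 or day 1 MHCII- replicate 1. Without day 0 MHCII+ replicate 2 Cd63 shifted by 1.47 (adjusted p = 0.119), against 1.72 with it. From day 1 to day 4 only Atp6v0d2 passed (-1.12 ± 0.21, adjusted p = 0.00243), beside 1.23% of all genes. From day 0 to day 4, 6 genes shifted upward, beside 2.87%, of which Atp6v0d2 (1.31 ± 0.21, adjusted p = 0.000212) and Ctsl (1.14 ± 0.20, adjusted p = 0.00088) held in every such fit. The other 4 were Lgmn, Gla, Cd63 and Atp6v1a. The count was 2 without day 4 MHCII+ replicate 3 or MHCII- replicate 1, and 3 without day 0 MHCII+ replicate 2 or either day 0 MHCII- array. It was 5 without day 0 MHCII+ replicate 1 or day 4 MHCII+ replicate 2 and 4 without day 4 MHCII- replicate 2. Ctsk, Lamp2, Tfeb and Atp6v0d1 passed in none of the 3 tests.

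Over time, MHCII- macrophages of DTR- mice had lower levels of many of the 37 genes on day 1 than on day 0 and higher levels on day 4 than on day 1. On day 1, 17 genes were lower than on day 0 and 1 was higher, beside 25.6% of all genes in either direction (16.2% lower, 9.4% higher). The median change was -0.22 over the 37 and -0.03 over all genes. On day 4, 20 genes were higher than on day 1 and 1 was lower, beside 24.2% of all genes (16.9% higher, 7.31% lower), with a median of 0.32 over the 37 and 0.05 over all genes. The 2 comparisons share the day 1 arrays, which tends to give them opposite signs, so the values are given side by side. Only the day 1 titles name DT, and day 0 also differs in age and gate, so these cannot be told apart from the day. Marker lists moved with both steps. Monocyte markers (4 of 6 found) read 9.61 and 9.29 on day 0, 12.20 and 12.07 on day 1 and 11.05 and 10.28 on day 4. Fibroblast markers (6 of 6) read 8.23 and 8.13, then 7.34 and 7.34, then 7.90 and 7.80. Dendritic cell markers read 7.64 and 7.76, then 6.86 and 6.77, then 7.20 and 6.99, while macrophage markers stayed between 12.21 and 12.42. Their part in the changes was not tested.

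Atp6v0d2 moved most in both. Its 2 arrays read 11.34 and 12.07 on day 0, 8.87 and 8.97 on day 1, and 12.31 and 12.37 on day 4. The change was -2.78 ± 0.15 to day 1 (6.89-fold lower, adjusted p = 4.98e-16) and 3.42 ± 0.15 from day 1 to day 4 (10.7-fold higher, adjusted p = 3.07e-18). No day 1 array overlapped either other day. Atp6v0d1 read 11.47 and 11.59, then 11.70 and 11.59, then 11.64 and 11.65, changes of 0.11 and 0.00 that did not pass.

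Of the 11 genes grouped as hydrolases and lipid-handling proteins, 6 fell and 8 rose in the respective steps. Hexa, the hexosaminidase alpha chain, read 12.99 and 13.02 on day 0, 12.06 and 12.09 on day 1 and 12.97 and 12.96 on day 4 (-0.93 ± 0.14, adjusted p = 7.83e-06, then 0.89 ± 0.14, adjusted p = 1.76e-05). Glb1 read 10.81 and 10.81, 9.86 and 9.94, then 11.02 and 11.14 (-0.91, then 1.17). Lipa read 12.86 and 13.09, 11.92 and 12.03, then 12.91 and 12.98 (adjusted p = 2.24e-05, then 4.09e-05). In all 3 genes day 1 lay below both other days without overlap, which was part of the choice of genes and adds no support. Man2b1 (-0.61, then 0.72) and Asah1 (-0.39, then 0.38) passed in both steps too, and Npc2 rose from day 1 to day 4 (0.37, adjusted p = 0.00134).

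Of the proteases, Ctsf, a cysteine cathepsin, read 8.92 and 8.76 on day 0 and 7.71 and 7.37 on day 1 (-1.30 ± 0.20, adjusted p = 8.33e-06). Its day 1 mean of 7.54 lay under the filter on low values of 7.57, so the size of this change is uncertain. On day 4 it read 8.34 and 8.40 (0.83, adjusted p = 0.00255; 0.66 and 0.0725 without day 1 replicate 2). Ctso, a little-studied cathepsin, read 10.71 and 10.78 on day 0 and 9.90 and 9.71 on day 1 (-0.94 ± 0.23, adjusted p = 0.00251). The serine carboxypeptidase Ctsa changed by -0.29 (adjusted p = 0.00159) and then by 0.32 (adjusted p = 0.000578). The tripeptidyl peptidase Tpp1 read 11.85 and 11.78 on day 1 and 12.67 and 12.63 on day 4 (0.84 ± 0.17, adjusted p = 0.000382). Ctsk read 8.51 and 8.59 on day 0, 8.41 and 8.47 on day 1 and 10.22 and 10.00 on day 4, with no call in the first step (-0.11) and a 3.19-fold rise in the second (1.67 ± 0.43, adjusted p = 0.00377). Ctsl had no call in either step (0.09 and -0.21), and its values stayed between 12.94 and 13.28 on these days. Ctss fell on day 1 (-0.49, adjusted p = 0.00932) and rose on day 4 (0.53, adjusted p = 0.0055). The first call ended without day 0 replicate 1 (adjusted p = 0.0779) or day 1 replicate 1 (0.0592), and the second without day 4 replicate 2 (0.0612). Ifi30 was the 1 gene called higher on day 1 than on day 0 (0.35, adjusted p = 0.0129), a call that ended without day 0 replicate 1 (0.134) or day 1 replicate 2 (0.101).

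The membrane genes Mcoln1 and Scarb2 passed in both steps with every array left out in turn. Mcoln1, which releases calcium from lysosomes, read 11.32 and 11.53 on day 0, 10.61 and 10.63 on day 1 and 11.26 and 11.20 on day 4 (-0.81 ± 0.11, adjusted p = 4.86e-07, then 0.61 ± 0.11, adjusted p = 4.73e-05). Scarb2, which carries glucocerebrosidase to lysosomes, read 11.21 and 11.11, 10.46 and 10.40, then 11.22 and 11.25 (-0.73, then 0.80). Day 1 was the lowest of the 3 days in both genes. Lamp1 rose from 12.95 on both day 1 arrays to 13.22 on both day 4 arrays (0.27 ± 0.07, adjusted p = 0.00258), and Lamp2 did not pass in either step (-0.17 and 0.07). Tfeb read 9.26 and 9.04 on day 0, 8.95 and 8.72 on day 1 and 9.17 and 9.13 on day 4 (-0.32, adjusted p = 0.0356, then 0.32, adjusted p = 0.0375). Both Tfeb calls ended without day 1 replicate 2 (adjusted p = 0.362 and 0.367). The first also ended without day 0 replicate 1 (0.366), and the second without day 4 replicate 1 (0.167) or 2 (0.111).

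Leaving out 1 array at a time left 11 to 14 calls of 18 in the first step and 14 to 18 of 21 in the second. The lowest counts came without day 0 replicate 1, the array with the high neutrophil markers (11), with 12 without day 1 replicate 2, and without day 1 replicate 2 or day 4 replicate 2 in the second step (14). In the first step Tpp1, Grn, Lamp1 and Cd68 lost their calls as well, and in the second step Ctso, Gusb, Grn, Cd63 and Atp6v1h did. Across the whole span from day 0 to day 4, 5 genes were higher, beside 7.22% of all genes (3.91% higher, 3.31% lower), and Ifi30 alone held in every fit (0.53 ± 0.11, adjusted p = 0.00104). Atp6v0d2 rose by 0.64 ± 0.15 (adjusted p = 0.00487) but by 0.27 with an adjusted p of 0.418 without day 0 replicate 1, and the calls of Ctsk, Npc2 and the glucuronidase Gusb also ended. The count was 1 without day 0 replicate 1 or day 4 replicate 2 and 2 without either of the others.

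MHCII+ macrophages of DTR- mice took another course on day 1, in which 12 genes were higher than on day 0 and 6 were lower. Of all genes, 35.6% passed (18.6% higher, 17% lower), and the median change of the 37 was 0.14. Between these days monocyte markers went from 9.75 and 9.45 to 11.76 and 11.51, and macrophage markers from 11.82 and 11.60 to 12.21 and 12.10. B cell markers went from 7.29 and 6.26 to 5.40 and 5.56, and dendritic cell markers from 9.13 and 8.93 to 8.38 and 8.34. Their part in the changes was not tested. On day 4 monocyte markers read 10.28 and 10.84. The protease group, in which Ifi30 is counted, accounted for 6 of the rises. Ctsl read 11.62 and 11.24 on day 0 and 13.13 and 13.08 on day 1, a 3.19-fold rise (1.67 ± 0.14, adjusted p = 1.6e-10) with no overlap. Ctsd rose from 12.81 and 12.74 to 13.52 and 13.54 (0.75 ± 0.21, adjusted p = 0.00585), and Ifi30 from 12.96 and 12.87 to 13.42 and 13.46 (0.53 ± 0.11, adjusted p = 0.000254). Lgmn rose by 0.37 (adjusted p = 5.76e-06). Among hydrolases, Gla rose from 11.07 and 11.18 to 11.96 and 11.89 (0.80 ± 0.11, adjusted p = 1.77e-06) and Gusb from 10.51 and 10.52 to 11.21 and 11.27 (0.72 ± 0.15, adjusted p = 0.000254). Man2b1, by contrast, fell from 12.57 and 12.61 to 11.80 and 11.98 (-0.70 ± 0.16, adjusted p = 0.000714). In the pump, Atp6v1a (0.61 ± 0.13, adjusted p = 0.000468) and Atp6v1h (0.76 ± 0.14, adjusted p = 0.00011) rose. Atp6v0d2 read 10.06 and 10.16, then 9.65 and 9.86, lower on both day 1 arrays without passing (-0.35 ± 0.15, adjusted p = 0.0615), and Atp6v0d1 did not pass (0.25). Tfeb fell from 9.61 and 9.58 to 9.10 and 9.06 (-0.51 ± 0.11, adjusted p = 0.000682), and Mcoln1 fell by 0.47 (adjusted p = 0.00101).

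Of the 18 calls, 11 held with any 1 array left out, those of Ctsl, Ctsd, Ifi30, Lgmn, Gla, Gusb, Man2b1, Atp6v1a, Atp6v1h, Tfeb and Mcoln1. Ctsk (1.08 ± 0.43, adjusted p = 0.0477) and Cd63 (0.95 ± 0.30, adjusted p = 0.0136) lost theirs without day 0 replicate 2 (0.316 and 0.176) or either day 1 array, and Ctsb lost its call without day 0 replicate 2 (0.0568). The calls of Ctsf, Hexa, Asah1 and Psap ended without day 0 replicate 1 or a day 1 array. Ctss, Lamp1 and Lamp2 did not pass (0.24, 0.11 and -0.13). The count without 1 array was 12 to 15. Of the other lysosomal lists, the pump had 7 of 12 tested subunits higher and none lower, led by Atp6v1c1 (1.30 ± 0.13, adjusted p = 2.2e-09) among the calls that held.

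From day 1 to day 4 in MHCII+ cells, 11 genes rose and 1 fell, beside 15.4% of all genes (7.77% higher, 7.61% lower), with a median of 0.19. Atp6v0d2 rose from 9.65 and 9.86 to 12.15 and 11.97, 4.93-fold (2.30 ± 0.15, adjusted p = 1.36e-12). The ceramidase Asah1 rose from 12.07 and 11.97 to 12.56 and 12.42 (0.47 ± 0.09, adjusted p = 0.000336), Man2b1 from 11.80 and 11.98 to 12.60 and 12.77 (0.80 ± 0.16, adjusted p = 0.000451) and Npc2 from 11.96 and 11.85 to 12.26 and 12.38 (0.41 ± 0.08, adjusted p = 0.000877). These 4 genes did not overlap between the days and kept their calls in every fit. The 1 gene that fell was Ctsl, from 13.13 and 13.08 to 12.33 and 12.56 (-0.66 ± 0.14, adjusted p = 0.00162), and without day 4 replicate 2 it changed by -0.54 (adjusted p = 0.0655). The calls of Ctss, Hexa, Glb1, Lipa, Lamp2, Scarb2 and Mcoln1 also ended, and the count was 6 without day 1 replicate 1, 5 without day 4 replicate 2 and 7 without either of the others. Ctsk (0.39), Lamp1 (0.07), Tfeb (0.30) and Atp6v0d1 (-0.14) did not pass. Outside the 37, the acid phosphatase Acp5 rose in this step by 2.15 ± 0.23 in MHCII+ cells (adjusted p = 4.43e-08) and by 2.66 ± 0.23 in MHCII- cells (adjusted p = 1.41e-10). The arylsulfatase Arsb changed from day 0 to day 1 by -2.90 in MHCII+ and -2.55 in MHCII- cells, and rose by 1.41 and 2.41 to day 4.

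**Figure D3:**
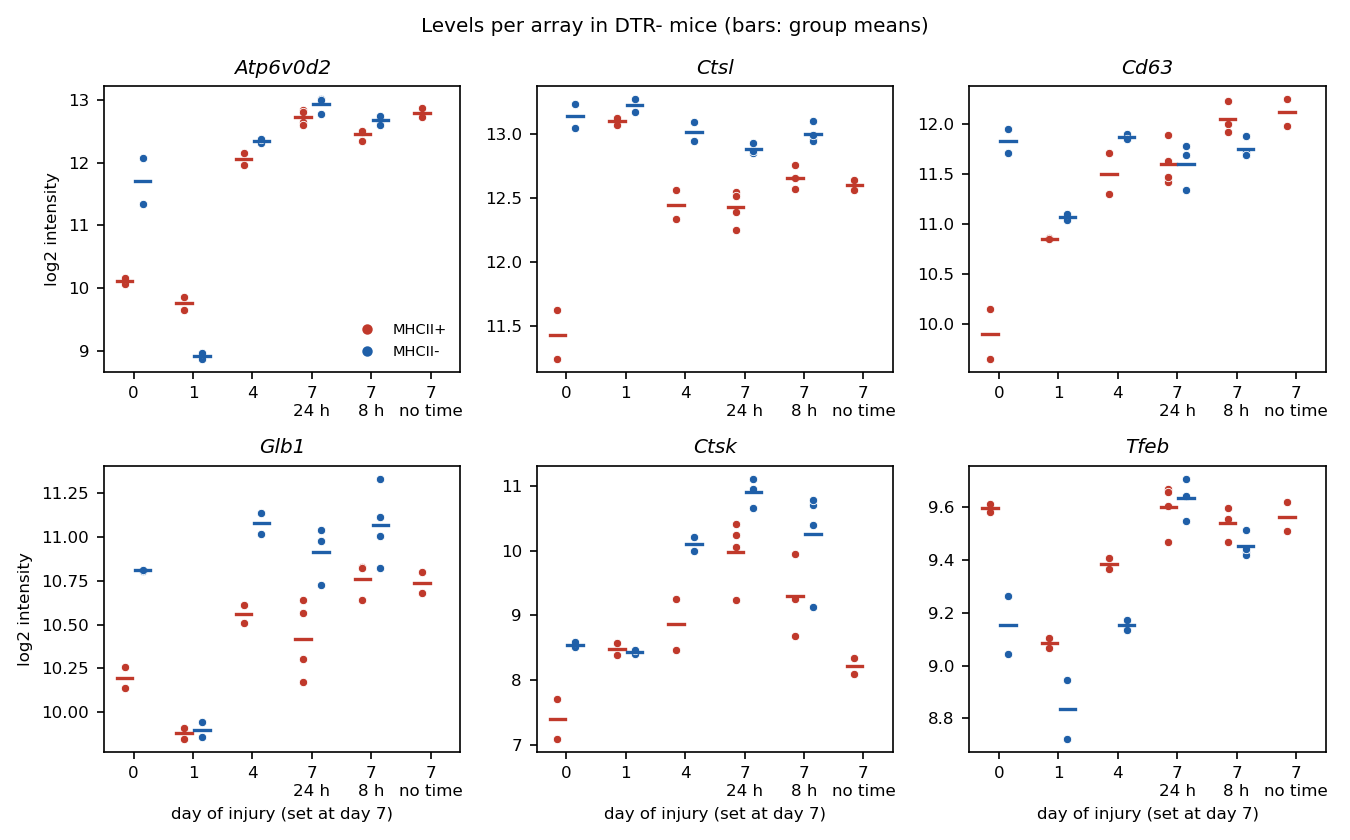
Level per array (vertical axis, log2 intensity) of 6 genes in DTR- mice by day and day 7 set (horizontal axis), with red points for MHCII+, blue points for MHCII- and short bars for group means. Atp6v0d2 lies between 8.87 and 9.86 on day 1 and stands at 11.97 or above from day 4. Its fall from day 0 to day 1 passed in MHCII- cells only. Ctsl in MHCII+ cells is at 11.62 and 11.24 on day 0 and above 12 afterwards.

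Over the full span from day 0 to day 4, 15 genes were higher in MHCII+ cells and none was lower, beside 16.7% of all genes (8.11% higher, 8.6% lower), with a median of 0.29. The day 0 arrays are those of the subset comparison and of the day 1 step, so these results share a baseline. Atp6v0d2 was 3.86-fold higher (adjusted p = 3.85e-11), Cd63 3.04-fold (10.15 and 9.65 to 11.30 and 11.71, adjusted p = 0.000206) and Ctsl 2.03-fold (adjusted p = 3.53e-06). The calls of Ctsb, Lgmn, Ifi30, Gla, Gusb and Atp6v1a held in every fit as well, with rises of 0.30 to 0.85. The count was 10 without day 0 replicate 2 and 11 to 14 without another array. Ctsk, Ctss, Lipa, Psap, Scarb2 and Atp6v1h lost their calls in at least 1 such fit.

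The set of day 7 arrays without a DT time matches day 0 in age (10 weeks) and in the listed gate, and was compared with it for MHCII+ cells of DTR- mice. Here 25 of the 37 were higher on day 7 and none was lower, beside 19.2% of all genes (10.4% higher, 8.72% lower), with a median of 0.45. Marker lists moved between the same arrays: macrophage markers went from 11.82 and 11.60 to 12.37 and 12.36, and skeletal muscle markers (6 of 6 found) from 8.66 and 8.14 to 9.51 and 9.31. Dendritic cell markers went from 9.13 and 8.93 to 7.63 and 7.59, and B cell markers from 7.29 and 6.26 to 5.43 and 5.32. Their part in the result was not tested. Atp6v0d2 read 10.06 and 10.16 on day 0 and 12.72 and 12.87 on day 7, 6.42-fold higher (2.68 ± 0.15, adjusted p = 1.51e-14). Cd63 read 10.15 and 9.65, then 11.99 and 12.26, 4.65-fold higher (2.22 ± 0.30, adjusted p = 1.33e-06). Ctsl read 11.62 and 11.24, then 12.56 and 12.65, 2.26-fold higher (1.18 ± 0.14, adjusted p = 2.3e-07). In each of the 3 the days were far apart. By role, 9 of 14 proteases, 9 of 11 hydrolases, 5 of 7 membrane genes and 2 of 5 pump subunits were higher. The day 0 arrays are again those of the subset comparison, so this result shares its baseline.

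The next largest rises that held in every fit were those of Lipa (0.96 ± 0.17), Atp6v1a (0.91 ± 0.13), Ctsd (0.88 ± 0.21), Scarb2 (0.87 ± 0.16) and Ctss (0.77 ± 0.14). Ctss read 12.64 and 12.35 on day 0 and 13.24 and 13.29 on day 7, and Lamp1 12.80 and 12.81, then 13.17 and 13.19 (0.37 ± 0.07, adjusted p = 7.8e-05). Tfeb (-0.03), Atp6v0d1 (0.17) and Ctsk (0.82 ± 0.43, adjusted p = 0.188) did not pass. Lamp2 passed (0.22, adjusted p = 0.0164) but not without day 0 replicate 2 (0.165) or day 7 replicate 2 (0.145). Of the 25 calls 15 held in every fit. The count was 17 without day 0 replicate 2, 16 without day 7 replicate 2, and 22 and 20 without the other arrays.

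Between day 4 and the day 7 24 h set, few of the 37 differed. Both came from mice of 8 weeks, but only the day 4 gate excluded SiglecF+ cells and required CD45+ DAPI- cells. Only the day 7 titles name DT, so day, gate and DT cannot be told apart. The 8 h set, used as day 7 below, differs from day 4 in age, in part of the gate and in DT. In MHCII+ cells Atp6v0d2 rose by 0.67 ± 0.13 (adjusted p = 0.00265; 0.58 and 0.102 without day 4 replicate 3) and Ifi30 fell by 0.33 (adjusted p = 0.0475), beside 2.46% of all genes. The Ifi30 call ended without either day 4 array or day 7 replicate 1 or 3, with adjusted p-values of 0.134 to 0.293. In MHCII- cells Tfeb rose from 9.17 and 9.13 to 9.71, 9.64 and 9.55 (0.48, adjusted p = 0.0138) and Atp6v0d2 from 12.31 and 12.37 to between 12.78 and 13.02 (0.59, adjusted p = 0.0212), beside 1.17%. Neither gene overlapped between the days. Both calls ended without day 7 replicate 1 or 2 or either day 4 array (adjusted p-values of 0.0665 to 0.273). With 1 array left out the counts ranged from 0 (without day 4 replicate 3) to 2 in MHCII+ cells, with 1 without day 4 replicate 2 or day 7 replicate 1, and from 0 to 2 in MHCII- cells, where only the fit without day 7 replicate 3 kept both. With the 8 h set as day 7, Atp6v0d2 stayed higher in MHCII+ cells (0.39, adjusted p = 0.0456). The call of Ifi30 in these cells (adjusted p = 0.0574) and those of Tfeb (0.0787) and Atp6v0d2 (0.13) in MHCII- cells ended, while Ctsf in MHCII+ cells (0.71, adjusted p = 0.00954) and Ifi30 in MHCII- cells (-0.36, adjusted p = 0.0217) passed. Ctsk was 1.12 and 0.80 higher on day 7 in MHCII+ and MHCII- cells, and neither difference passed. It passed in MHCII+ cells without day 7 replicate 3 (1.37, adjusted p = 0.0483), and in MHCII- cells with the compared arrays alone (adjusted p = 0.0382) and with array weights (0.0113).

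DTR+ and DTR- mice were compared within each day and subset, which addresses the effect of removing regulatory T cells in the sets whose titles name DT. For the day 7 set without a DT time the labels used here do not say whether the mice received DT, so its differences are between genotypes only. The arrays carry no readout of the transgene, so the genotype labels could not be checked. On day 1 and in the day 7 24 h and 8 h sets none of the 37 passed in any of the 6 comparisons by limma. Of all genes, 0% passed on day 1 in both subsets, 0.0542% and 0.00903% in MHCII+ and MHCII- cells of the 24 h set, and 0.488% and 0.0181% in those of the 8 h set. At an unadjusted p under 0.05 the counts were 0 and 0 on day 1, 0 and 6 in the 24 h set, and 17 and 0 in the 8 h set. The shares of all genes at that level were 0.226% and 1.39%, 6.47% and 6.47%, and 18.5% and 4.39%. The fit shares 1 spread per gene over all sets. The typical residual standard deviation was 0.0842 on day 1, 0.2036 in the 24 h set and 0.1557 in the 8 h set. Day 1 tests are therefore strict for the spread of their own arrays, and the absence of calls there partly reflects this. The medians were -0.01 and 0.01 on day 1, 0.00 and -0.13 in the 24 h set, and -0.19 and 0.00 in the 8 h set.

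The 17 in MHCII+ cells of the 8 h set include Lamp1, which read 13.12, 13.17 and 13.12 in DTR- mice and 12.85, 13.05 and 12.95 in DTR+ mice, without overlap, and had the smallest adjusted p of the 37 (-0.19 ± 0.05, 0.114). Atp6v0d1 differed by -0.35 ± 0.11 (adjusted p = 0.14), Ctsl by -0.26 ± 0.12 (0.24), Ctss by -0.30 ± 0.12 (0.182), Ctsk by 0.32 ± 0.35 (0.631), Lamp2 by -0.06, Tfeb by 0.10 and Atp6v0d2 by 0.08. Here replicate 1 of the DTR+ mice, the array with the high T cell markers, was the lowest of its group for 32 of the 37. Leaving it out left the count at 0, and leaving out DTR+ replicate 3 raised it to 13. The share of all genes in those fits is not given here.

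In the day 7 set without a DT time, MHCII+ cells of DTR+ mice differed from those of DTR- mice in 4 of the 37, beside 11.5% of all genes, with a median of -0.09. At an unadjusted p under 0.05 the count was 10 of the 37, beside 22.2% of all genes. With 2 arrays per genotype, values did not overlap for 29 of the 37, and the share over all genes was not taken for this comparison. A lack of overlap, which was also part of the choice of genes given in full, therefore adds no support here. Ifi30 read 13.06 and 13.15 in DTR- mice and 13.66 and 13.69 in DTR+ mice, 1.48-fold higher (0.57 ± 0.11, adjusted p = 0.000247), without overlap and in every fit with 1 array left out. Ctsk read 8.09 and 8.34 against 10.09 and 9.59, 3.08-fold higher (1.62 ± 0.43, adjusted p = 0.00909), and Ctsf read 8.50 and 8.65 against 7.65 and 7.83, 1.78-fold lower (-0.83 ± 0.20, adjusted p = 0.00448). Scarb2 read 11.23 and 11.28 against 10.64 and 10.78 (-0.55 ± 0.16, adjusted p = 0.0175). None of these 3 overlapped between genotypes, but the call of Ctsk ended without DTR+ replicate 1 (adjusted p = 0.158) or DTR- replicate 1 (0.104), that of Ctsf without DTR+ replicate 1 (0.0866) or DTR- replicate 2 (0.0682), and that of Scarb2 without DTR+ replicate 1 (0.198) or DTR- replicate 1 (0.0884) or 2 (0.123). With DTR+ replicate 1 left out the count was 1, with DTR+ replicate 2 it stayed at 4, and with either DTR- array it was 2.

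Of the other genes followed throughout, none passed there. Ctsl differed by 0.25, Ctss by 0.23, Lamp1 by -0.13, Lamp2 by -0.01, Tfeb by -0.14, Atp6v0d1 by -0.10 and Atp6v0d2 by 0.30. Monocyte markers averaged 10.69 and 10.46 in DTR+ mice and 9.13 and 9.19 in DTR- mice, and neutrophil markers 7.49 and 7.25 against 6.77 and 6.88. Skeletal muscle markers averaged 8.55 and 8.76 against 9.51 and 9.31, and T cell markers 6.84 and 6.90 against 7.38 and 7.22, and the part of these lists in the differences was not tested. Fitted on only these 4 arrays the count of the 37 was 20, and 19 with array quality weights. The share of all genes that passed in those 2 fits is not given here. This set had the smallest typical residual standard deviation (0.0722), so the 2 counts are not a result about the 37 in particular. Outside the 37, Tfec was higher in DTR+ mice (11.62 and 11.36 against 10.40 and 10.44, 1.07 ± 0.17, adjusted p = 2.27e-05), as was cystatin F, Cst7, an inhibitor of cysteine cathepsins (9.44 and 9.22 against 7.01 and 7.26, 2.19 ± 0.32, adjusted p = 6.6e-06). Both DTR- values of Cst7 lay under the filter on low values of 7.57, so the size of its difference is uncertain. The sulfatases Sgsh (-1.26 ± 0.16, adjusted p = 2.69e-07) and Arsb (-0.92 ± 0.16, adjusted p = 6.51e-05) were lower.

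**Figure D4:**
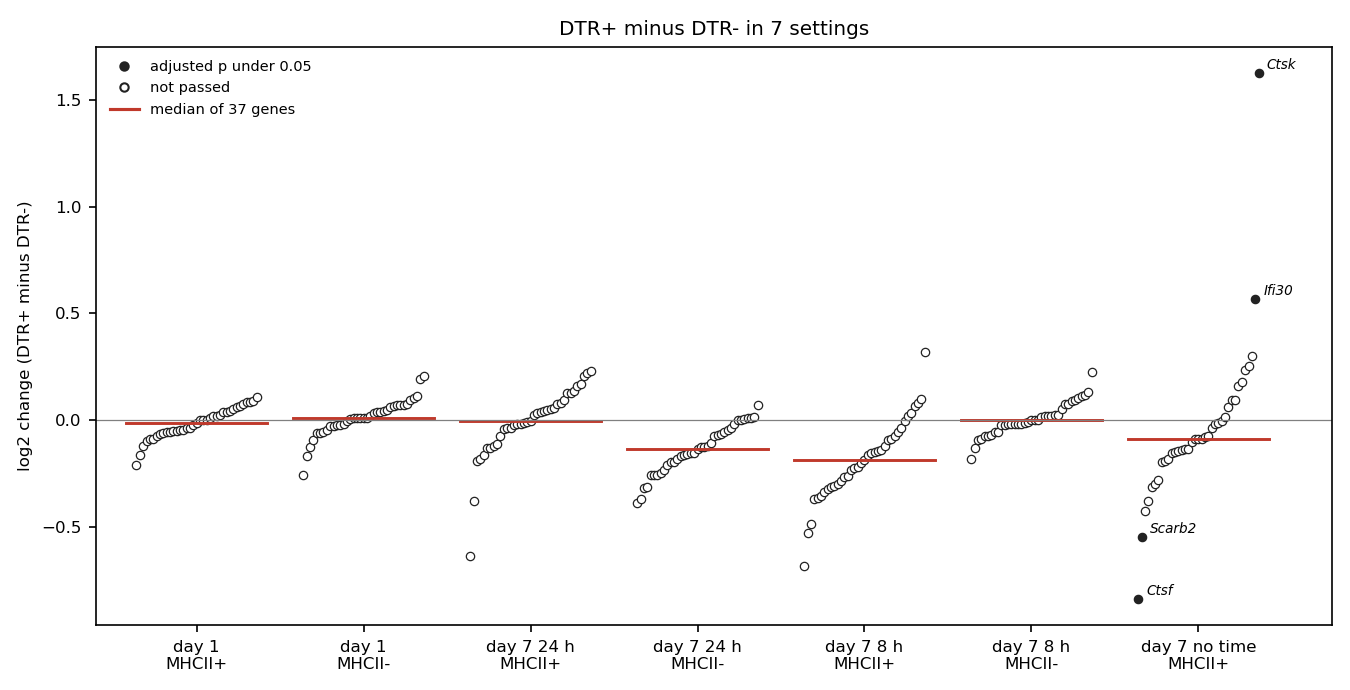
Difference between genotypes (vertical axis, log2 change, DTR+ minus DTR-) for the 37 genes, 1 point per gene ordered by value, in 7 settings of day, set and subset (horizontal axis); filled points passed at an adjusted p under 0.05 and red lines are medians. Only the day 7 set without a DT time has filled points, which are Ctsk (1.62), Ifi30 (0.57), Scarb2 (-0.55) and Ctsf (-0.83).

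**Figure D5:**
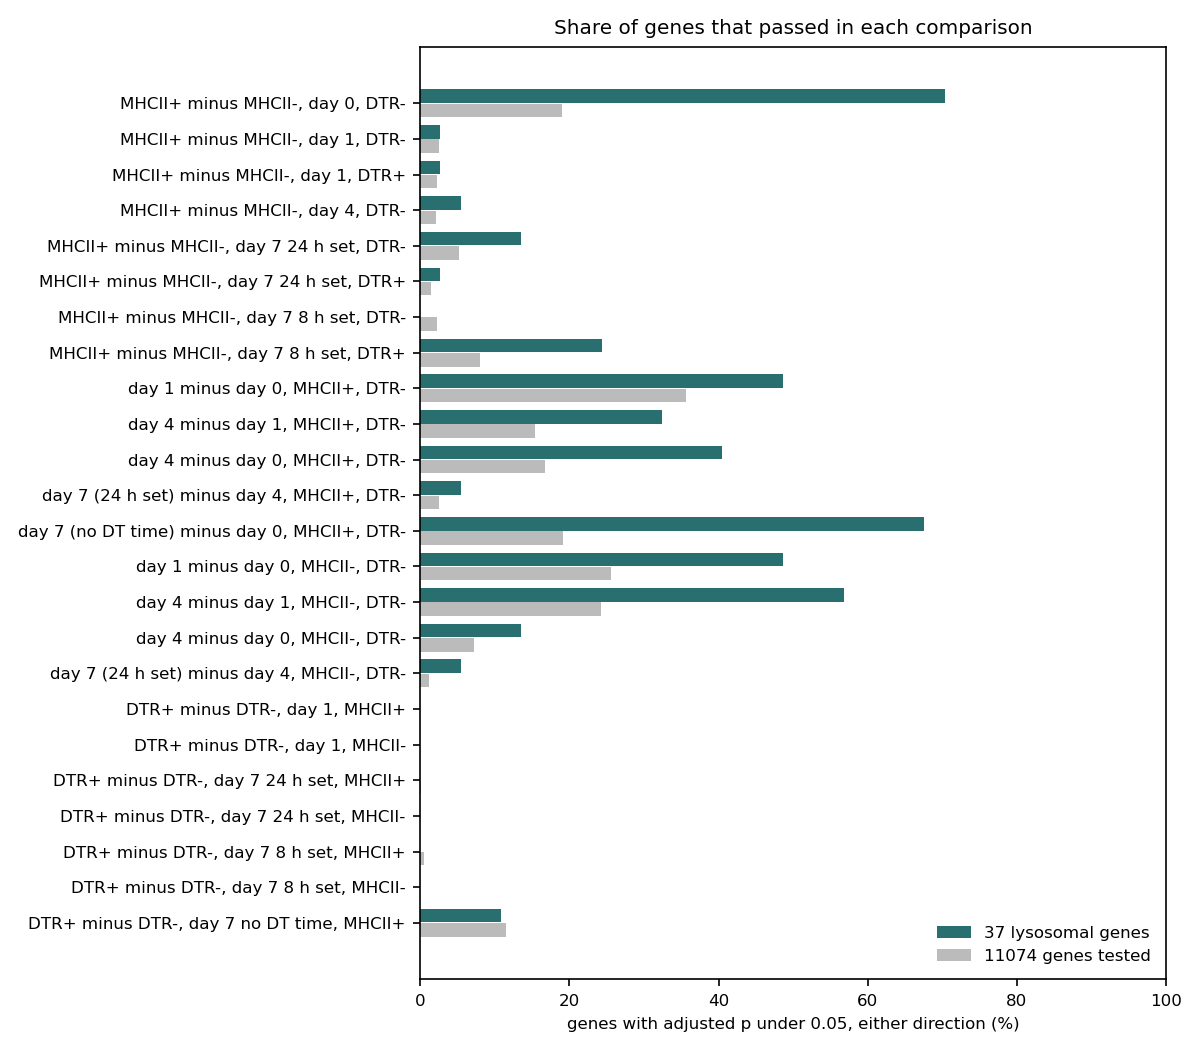
Share of genes with an adjusted p under 0.05 in either direction (horizontal axis, percent) in each comparison (vertical axis), for the 37 lysosomal genes and for all 11074 genes tested. On day 0, 26 of the 37 differed between subsets, where 19% of all genes did, and 4 of the 37 differed between genotypes in the day 7 set without a DT time, where 11.5% of all genes did.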

How the data were processed

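Total RNA of sorted macrophages was hybridised to 45 arrays. The deposited values are one linear intensity per probe set and array, for which the authors used RMA in Affymetrix Power Tools, per the submitters' processing notes (versions and settings not given in the sources used here). Background correction and normalization were thus done by the authors. RMA compresses differences among dim and among saturated probes, so changes in very bright genes may be understated.

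Values were converted to log2. Of 24922 probe sets, 21425 had a single gene symbol, 1399 had several and 2098 were not listed with a gene; the probe set with the highest mean stood for each of 19752 genes. The 11074 genes with a group mean of at least 7.57 (log2) in 1 or more groups were tested. One limma model (3.58.1, R 4.3.3) with 18 groups over all 45 arrays, an intensity trend and 27 residual degrees of freedom gave each difference and its standard error, with Benjamini-Hochberg adjustment over all 11074 genes and a threshold of 0.05. The model shares 1 spread per gene over all sets. Typical residual standard deviations per set ran from 0.0722 (day 7 without a DT time) to 0.2036 (24 h set). Tests in sets with little spread are therefore strict, and those in sets with wide spread are lenient. Levels are log2 intensity per array, and n is the number of arrays of the group. Genes given in full are up to 8 per direction with the largest change that passed without overlap, together with Atp6v0d1, Atp6v0d2, Ctsk, Ctsl, Ctss, Lamp1, Lamp2 and Tfeb; of the other lysosomal lists, up to 3 per list and direction. Lack of overlap was part of the choice of genes given in full and is common with 2 arrays per group, so it adds no support. Its share over all genes was taken only for the subsets on day 0 (64.6%). The genes and lists were chosen with earlier results of these data known. For the subsets of DTR- mice in the 8 h set, deviations of same-numbered samples correlated at 0.53, 0.48 and 0.58, and the block left the count at 0. In the other comparisons these correlations ran from -0.46 to 0.69. The highest was that of number 5 between genotypes in MHCII- cells of the 8 h set, where number 3 gave 0.27. The scripts were tested on simulated data. Figures used Python 3.11.15, numpy 2.4.6, pandas 2.3.3 and matplotlib 3.10.9. Alternatives were no filter, the compared arrays alone, array weights, quantile normalization, the mean of all probe sets, no trend, a replicate block, the 8 h set as day 7, and each array left out.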

Additional observations from a re-analysis of the deposited data

Results flagged for a closer look

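Dixon's test on the 74 combinations of gene and group with 4 arrays set 2 values apart, where chance sets about 1 in 20 apart. Both lie in MHCII- cells of DTR- mice in the day 7 8 h set. Ctsa read 13.32 on replicate 5 and 13.40 to 13.42 on the others. Cd63 read 11.89 on replicate 3 and 11.70 to 11.73 on the others.

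The subset difference (MHCII+ minus MHCII-) in DTR- mice differed between days by an interaction test in limma for these genes. From day 0 to day 1 it shifted by 0.36 for Ctsb, 1.59 for Ctsl, 0.73 for Ctss, 0.41 for Lgmn, 0.69 for Gla, 1.18 for Lipa, 0.32 for Lamp1, 1.72 for Cd63, 0.32 for Cd68, 0.85 for Scarb2, 2.43 for Atp6v0d2 and 0.83 for Atp6v1a. From day 1 to day 4 it shifted by -1.12 for Atp6v0d2. From day 0 to day 4 it shifted by 1.14 for Ctsl, 0.36 for Lgmn, 0.60 for Gla, 1.56 for Cd63, 1.31 for Atp6v0d2 and 0.79 for Atp6v1a. Day 0 also differs from days 1 and 4 in age and gate, and of these days only day 1 has titles that name DT. The part of age, gate and DT in the shifts was not tested.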

How the results depend on the processing

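Leaving out 1 array at a time kept 91 counts of called genes within 1.5 times of those reported and moved 50. The lowest and highest counts of the 37 were 16 and 22 (26 with all arrays) for the subsets on day 0, 0 and 2 on day 4, 0 and 8 in the 24 h set of DTR- mice, 0 and 2 in that of DTR+ mice, 0 and 1 in the 8 h set of DTR- mice and 1 and 20 in that of DTR+ mice. For days they were 5 and 7 (day 4 against day 1), 0 and 2 (day 7 against day 4) and 16 and 22 (day 7 without a DT time against day 0) in MHCII+ cells, and 11 and 14 (day 1 against day 0), 1 and 2 (day 4 against day 0) and 0 and 2 (day 7 against day 4) in MHCII- cells. For genotype they were 0 and 13 (8 h set, MHCII+) and 1 and 4 (no DT time), and for the shift of the subset difference 6 and 10 (day 0 to 1) and 2 and 5 (day 0 to 4).

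Fitting only the compared arrays gave 5, 5 and 5 for the subsets on day 1 (DTR-, DTR+) and day 4, 1 and 0 in the 24 h set (DTR-, DTR+), 1 and 0 in the 8 h set, 1 for day 7 against day 4 in MHCII+ cells, 8 for day 4 against day 0 in MHCII- cells, 20 for genotype without a DT time, and 22 and 6 for the shift of the subset difference from day 0 to 1 and from day 1 to 4. Array quality weights, whose fit did not converge to its tolerance, gave 6, 8 and 5 for the subsets on day 1 and day 4, 10 and 6 in the 24 h set and 5 and 3 in the 8 h set. They gave 1 and 11 for day 7 against day 4 in MHCII+ and MHCII- cells, 11 for day 4 against day 0 in MHCII- cells, 15, 10 and 19 for genotype (MHCII- cells of the 24 h and 8 h sets, no DT time), and 25, 6 and 10 for the shifts from day 0 to 1, 1 to 4 and 0 to 4. With the weights, Ctss between genotypes in MHCII- cells of the 24 h set reversed, from -0.05 to 0.15 (adjusted p = 0.000207). No filter gave 1 for the subsets on day 4, 5 in the 8 h set of DTR+ mice and 1 for day 7 against day 4 in MHCII+ cells, and no trend gave 1 and 1 for the first and last of these. Quantile normalization gave 3 for the 24 h set of DTR+ mice, 1 for the 8 h set of DTR- mice, 1 for day 7 against day 4 in MHCII- cells and 7 for genotype without a DT time. The 8 h set as day 7 gave 1 against day 4 in MHCII- cells, Ifi30, in place of Tfeb and Atp6v0d2. The causes were not tested beyond what each setting leaves out. For none of the counts in this section is the share of all genes that passed under the same setting given. Rises and falls in these counts therefore cannot be told apart from changes over the whole array, and are not a result about the lysosomal genes in particular.

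With the replicate number as a block, 8 genes passed between the subsets of DTR- mice in the 24 h set and 1 for day 7 against day 4 in MHCII+ cells, and the other block counts stayed within 1.5 times of those reported. No paired analysis was possible because fewer than 2 replicate numbers are shared for the subsets on day 4 and of DTR+ mice in both day 7 sets with a DT time, for day 4 against day 1 and day 0 in MHCII+ cells, for genotype in MHCII+ cells of the 24 h set and for the shifts that involve day 4. Same-numbered samples in the 24 h set of DTR- mice correlated at 0.36, 0.15 and -0.02.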
